A study of Mus musculus with 2 samples.

Results

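The genes described here encode the carriers that move sugars, amino acids and small peptides across the plasma membrane or the lysosomal membrane. They were chosen by symbol, as genes of the solute carrier families SLC1, SLC2, SLC3, SLC5, SLC6, SLC7, SLC15, SLC36, SLC38 and SLC43, without use of their values. The rule found 79 of the 17134 genes in the table. Of these, 77 are carriers or carrier subunits, and 2, Slc7a6os and Slc6a19os, are opposite-strand genes that share the symbol of a neighbour. RNA came from tuft cells of the small intestine of naive mice, sorted as cells positive for EpCAM and SiglecF. The library called WT came from mice of the genotype Spib+Villin-cre. The library called Spib_KO came from mice of the genotype Spibfl/flVillin-cre, in which Cre driven by the Villin promoter, active in the gut epithelium, deletes the transcription factor gene Spib. Both groups carry Villin-cre. The labels give neither the age of the mice nor the number of mice per library. With 1 library per genotype there was no replicate check and no test, and each value describes these libraries.

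Carriers of these families work in 3 main ways. Facilitative carriers let a solute run down its gradient, sodium- or proton-coupled carriers use an ion gradient to concentrate it, and exchangers trade one amino acid for another. In the absorptive enterocytes of the small intestine, coupled carriers at the brush border take up glucose, amino acids and peptides, and exchangers and facilitative carriers release them on the blood side. Other members supply growing cells with glucose and glutamine, report amino acids at the lysosome, or clear transmitters such as serotonin.

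Depth was similar in both libraries, with 17925421 reads assigned to genes in WT and 17228665 in Spib_KO. Spib had 6266 reads in WT and 48 in Spib_KO, or 0.81% of the WT level. The 10 tuft markers in the list used here were measured, and their log2 ratios ran from -0.56 to 0.29 with a median of 0.07. Markers of other cells were present too. The 12 enterocyte markers summed to 15450 in WT and 17280 in Spib_KO as normalised read counts (CPM, reads scaled to a common library size), of which the fatty acid-binding protein gene Fabp1 gave 6968 and 10611 CPM. The 6 Paneth cell markers summed to 2241 and 898 CPM, the 7 goblet cell markers to 2211 and 1378 CPM, the 9 enteroendocrine markers to 136 and 41.9 CPM, and the 7 T cell markers to 48.5 and 5.71 CPM. In bulk RNA, fewer cells of a type and less RNA per cell cannot be told apart.

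A gene counted as measured if it had at least 5 CPM and 30 reads in 1 library or both. It was called higher or lower in Spib_KO if its whole 95% counting interval lay beyond a 2-fold difference, that is beyond a log2 ratio of 1 or -1. Of the 79 genes, 50 were measured, 49 of them carriers. Slc1a4, an exchanger of alanine, serine, cysteine and threonine, was called higher, and Slc2a9, a urate carrier of the glucose carrier family, was called lower. The other 48 were not called. In what follows, paired values give WT first and Spib_KO second, and ranges in brackets are 95% counting intervals. Over all 10707 measured genes, 2.33% were called higher and 2.18% lower by the same rule, so 1 call in each direction among 50 is near the background.

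The median log2 ratio of the 50 was -0.13 (quartiles -0.46 and 0.21), against 0.01 (quartiles -0.26 and 0.28) for all measured genes. Of the 50, 31 (62.0%) had a ratio below 0, against 48.8% of all measured genes. The share within 1.5-fold of equality was 72.0%, against 79.5%. The counting interval lay wholly above 0 for 13 of them, wholly below 0 for 22, and held 0 for 15. These intervals cover counting error only.

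The summed level of the 77 carriers was 1654 TPM in WT and 1665 TPM in Spib_KO. TPM, the deposited transcript level scaled for both length and library size, is used wherever levels of different genes are set side by side. The 10 carriers with the highest mean TPM held 69.2% of that sum in WT and 68.6% in Spib_KO. Slc5a1, the sodium-coupled glucose carrier of the brush border, led in WT with 283 TPM and had 208 TPM in Spib_KO. Slc1a5, a glutamine exchanger, led in Spib_KO with 304 TPM and had 235 TPM in WT. The first place thus differed between the libraries. The next by mean TPM were Slc3a2 (145 TPM in WT and 129 TPM in Spib_KO), Slc2a1 (89.6 and 126 TPM), Slc7a9 (96.3 and 110 TPM) and Slc6a6 (73.3 and 69.2 TPM). Slc7a7, Slc6a20a, Slc7a8 and Slc2a5 completed the 10, between 43.9 and 63.8 TPM in WT and between 35.8 and 60.5 TPM in Spib_KO.

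**Figure D1:**
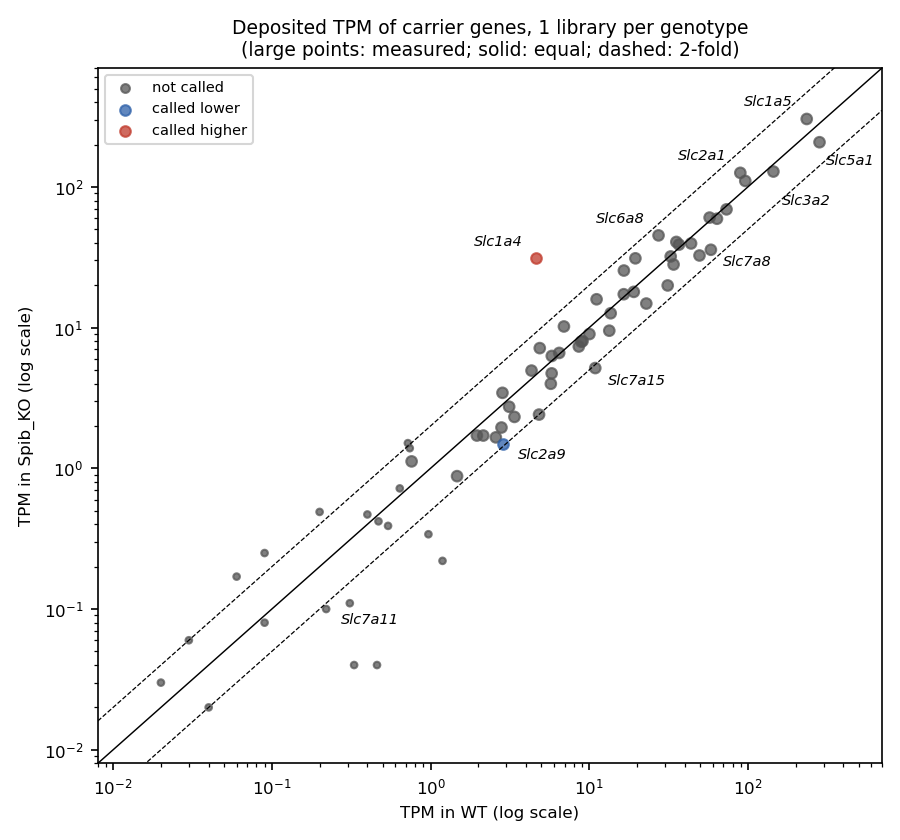
TPM of 68 carriers with reads in both libraries, WT on the horizontal and Spib_KO on the vertical log axis. 1 point is 1 gene, large points are measured genes, the solid line marks equal levels and the dashed lines a 2-fold difference. Slc1a4 (4.62 TPM in WT, 31.1 TPM in Spib_KO) stands apart above the upper dashed line, while Slc5a1 and Slc1a5 lie at the top near the line of equality.

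SLC1 holds the carriers of acidic amino acids and the neutral amino acid exchangers. Slc1a4 (gene 55963, chromosome 11, 20302180 to 20332713, GRCm38.p6) had 244 reads in WT and 1586 in Spib_KO. These are 13.6 CPM (95% Poisson interval 11.9 to 15.4) and 92.4 CPM (87.9 to 97.1). The 6.80-fold higher level gives a log2 ratio of 2.77 (95% interval 2.57 to 2.97). No annotated gene overlaps it. Of all measured genes, 39 had an interval bound further above 0 than Slc1a4. Its closest relative Slc1a5 was far more abundant and differed much less, with 8470 and 10607 reads, 471 and 618 CPM, and a log2 ratio of 0.39 (0.35 to 0.43). In TPM, Slc1a5 was 50.8 times Slc1a4 in WT and 9.76 times in Spib_KO.

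The 250 bases upstream of the Slc1a4 transcription start are shown because it is the measured carrier with the largest log2 ratio in either direction. They lie on the minus strand at chr11:20332714-20332963 (RefSeq, GRCm38.p6).

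Slc1a4 upstream: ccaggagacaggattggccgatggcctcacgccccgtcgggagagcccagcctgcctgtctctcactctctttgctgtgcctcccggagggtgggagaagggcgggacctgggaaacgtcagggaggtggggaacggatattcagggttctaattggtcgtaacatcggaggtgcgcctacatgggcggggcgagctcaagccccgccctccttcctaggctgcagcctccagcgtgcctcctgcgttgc

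G and C make up 64.8% of it. It was searched on both strands for AGGAAGT, a form of the site bound by ETS factors, the family of Spi-B, and for TGATGNAA, a form of the amino acid response site bound by ATF4. Neither set of letters is in this window. AGGAAGT is found in 7.32% and TGATGNAA in 1.99% of 11120 such windows of measured genes. A window was at hand for 41 of the 50 measured genes, and Slc7a7 was the one among them with either match.

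The other 2 measured SLC1 carriers also had more reads in Spib_KO without reaching the call. Slc1a3, a glutamate carrier best known from glia, had 394 and 558 reads, 21.9 and 32.5 CPM, and a log2 ratio of 0.57 (0.38 to 0.76). Slc1a1, the glutamate and aspartate carrier of the intestinal brush border, had 98.7 and 115 CPM and a ratio of 0.21 (0.12 to 0.31). All 4 measured SLC1 carriers thus had ratios above 0, and their family's share of the summed carrier TPM was 17.1% in WT and 23.3% in Spib_KO. Slc1a5 held most of it, with 235 of the family's 283 TPM in WT and 304 of 388 TPM in Spib_KO.

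SLC2 holds the facilitative sugar carriers, and its members went both ways. Slc2a9 (gene 117591, chromosome 5, 38349272 to 38503147) had 134 reads in WT and 41 in Spib_KO, or 7.45 CPM (6.24 to 8.82) and 2.39 CPM (1.71 to 3.24). The log2 ratio was -1.63 (-2.18 to -1.13), 3.09-fold lower. In deposited TPM the same gene had 2.88 and 1.48, a log2 ratio of -0.96, short of 2-fold. Reads and TPM part here because the length behind the authors' values, read from reads per FPKM unit relative to the median gene, was 0.62 times as long in Spib_KO as in WT. Of 48 measured genes with such a value, Slc2a9 and the lactate carrier Slc5a12 (0.76) differed by more than 1.2-fold in it. The annotated gene Gm40290 overlaps Slc2a9.

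Other SLC2 carriers had ratios of both signs. Slc2a1, the basal glucose carrier of most growing cells, had 3006 and 4078 reads, 167 and 238 CPM, and a log2 ratio of 0.51 (0.44 to 0.58). Slc2a10, which is known as a carrier of dehydroascorbic acid, had 49.8 and 80.1 CPM and a ratio of 0.69 (0.56 to 0.81). Slc2a2, the glucose and fructose carrier of the enterocyte's blood side, had 1047 and 646 reads, 58.2 and 37.6 CPM, and a ratio of -0.63 (-0.77 to -0.49). The fructose carrier Slc2a5 of the brush border was close in both, with 67.7 and 61.6 CPM and a ratio of -0.14 (-0.26 to -0.02). None of these 4 was called. Slc2a7 and Slc2a8 had ratios of -0.51 and -0.15.

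SLC5 holds the sodium-coupled carriers of sugars, inositol, monocarboxylates and vitamins. Slc5a1 had 14968 and 10604 reads, 832 CPM (818 to 845) and 618 CPM (606 to 630), and a log2 ratio of -0.43 (-0.46 to -0.39). Slc5a11, a sodium-coupled inositol carrier, had 37.6 and 24.4 CPM and a ratio of -0.63 (-0.81 to -0.45). Slc5a12, a sodium-coupled lactate carrier, had 170 and 87 reads, 9.45 and 5.07 CPM, and a ratio of -0.89 (-1.29 to -0.52). In deposited TPM it had 2.80 and 1.95, a log2 ratio of -0.52. Of 9 measured SLC5 carriers 7 had ratios below 0 and the median was -0.24, with no call in either direction. Slc5a8, which takes up short-chain fatty acids, had 7.95 and 6.99 CPM and an interval that held 0 (-0.55 to 0.18). The exceptions above 0 were Slc5a9, at 8.28 and 11.4 CPM with a ratio of 0.46 (0.14 to 0.77), and the vitamin carrier Slc5a6, at 10.2 and 12.1 CPM with an interval that held 0 (-0.05 to 0.54). Slc5a4a and Slc5a4b, a closely related pair whose reads may be split by the counting, had ratios of -0.21 and -0.24. Their expected counts were whole in both libraries. The family's share of the summed carrier TPM was 20.6% in WT and 15.2% in Spib_KO. Slc5a1 held most of it, with 283 of the family's 340 TPM in WT and 208 of 253 TPM in Spib_KO.

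**Figure D2:**
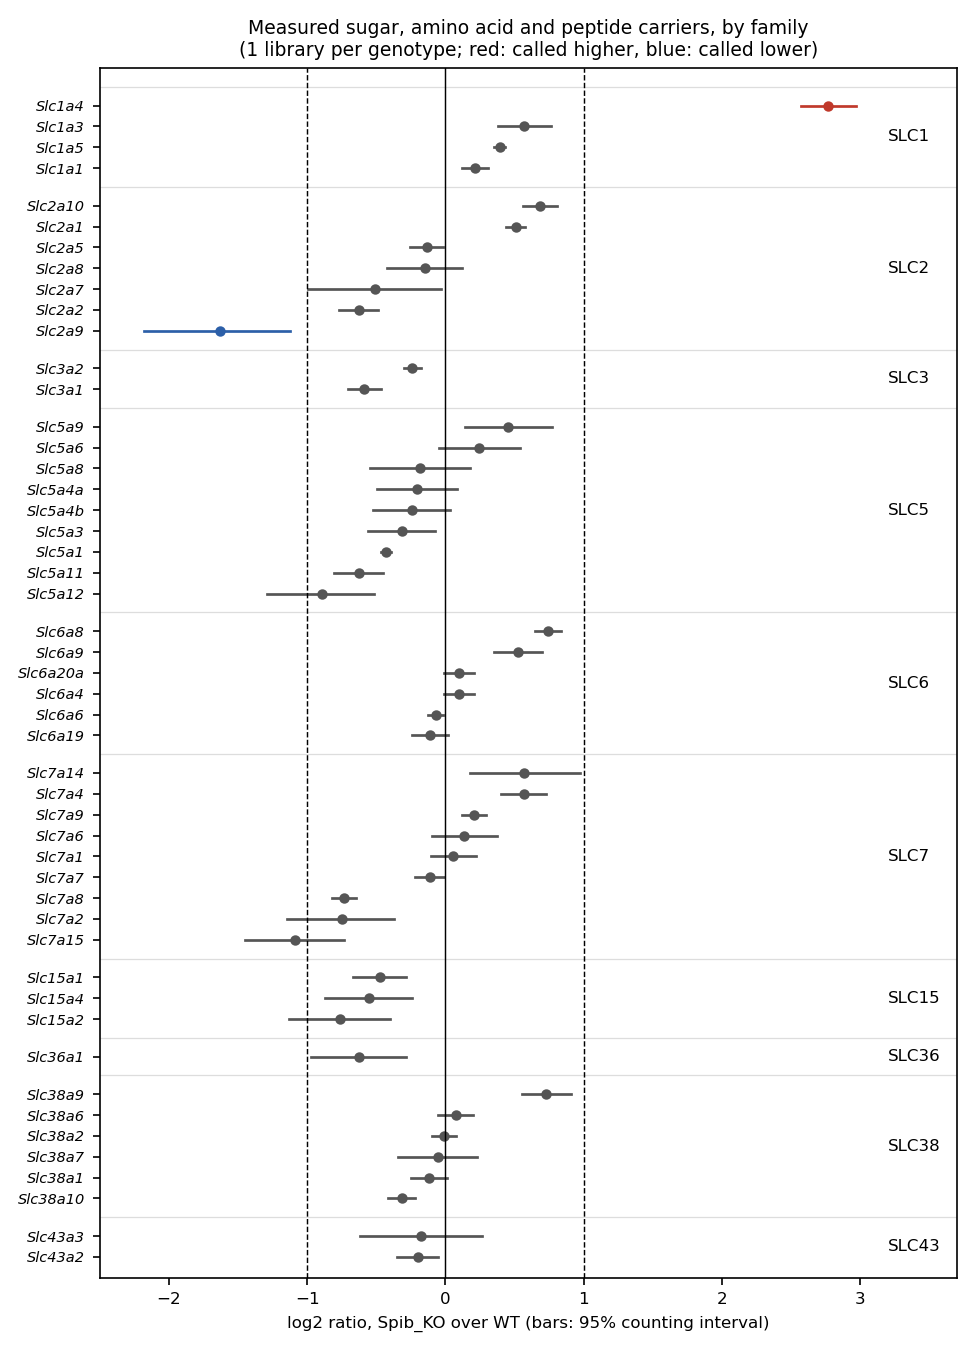
The log2 ratio of Spib_KO over WT (horizontal axis) for the 49 measured carriers, grouped by family, with bars for the 95% counting interval and dashed lines at a 2-fold difference. Slc1a4 at 2.77 lies clear of the upper line and Slc2a9 at -1.63 of the lower, and the SLC5, SLC15 and SLC36 carriers lie mostly to the left of 0.

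SLC15 and SLC36 include carriers that couple transport to protons. Slc15a1, which takes up di- and tripeptides at the brush border, had 554 and 380 reads, 30.8 and 22.1 CPM, and a log2 ratio of -0.47 (-0.67 to -0.28). Slc15a2, its high-affinity relative, had 9.78 and 5.77 CPM and a ratio of -0.76 (-1.13 to -0.40). Slc15a4, a histidine and peptide carrier of endolysosomes, had 11.9 and 8.10 CPM and a ratio of -0.55 (-0.87 to -0.24). Slc36a1, a carrier of small neutral amino acids, had 10.3 and 6.70 CPM and a ratio of -0.62 (-0.97 to -0.28). All 4 had an interval below 0 and none was called. Slc36a4 had 7 and 6 reads and was not measured.

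SLC7 includes, among other carriers, the light chains of exchangers whose heavy chains are SLC3 members. Slc3a1, the heavy chain of the brush border carrier of cystine and cationic amino acids, had 1473 and 936 reads, 81.9 and 54.5 CPM, and a log2 ratio of -0.59 (-0.71 to -0.47). Its light chain Slc7a9 had 2040 and 2245 reads, 113 and 131 CPM, and a ratio of 0.21 (0.12 to 0.29). The subunits of this carrier therefore had opposite signs, and in TPM Slc7a9 was 1.94 times Slc3a1 in WT and 3.39 times in Spib_KO. The span of Slc3a1 overlaps that of Prepl, which had a ratio of -0.15. Reads from bases that both genes share cannot be told apart without strand.

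Slc3a2, the heavy chain shared by several light chains and known as CD98, had 4811 and 3890 reads, 267 and 227 CPM, and a log2 ratio of -0.24 (-0.30 to -0.18). Its partners for the blood side differed. Slc7a8, a neutral amino acid exchanger, had 3023 and 1733 reads, 168 and 101 CPM, and a ratio of -0.73 (-0.82 to -0.65), or 1.66-fold lower. Slc7a7, which exports cationic amino acids, had 88.6 and 81.9 CPM and a ratio of -0.11 (-0.22 to -0.01), and it overlaps Oxa1l with a ratio of 0.23. Slc7a6, of the same kind, had 16.2 and 17.8 CPM and an interval that held 0 (-0.10 to 0.37). Slc7a5, the partner known from proliferating cells, had 25 and 17 reads and was not measured. In TPM, Slc3a2 was 268 times Slc7a5 in WT but 2.27 times Slc7a7 and 2.48 times Slc7a8.

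Among the remaining SLC7 carriers, Slc7a15 had 214 and 96 reads, 11.9 and 5.59 CPM, and a log2 ratio of -1.08 (-1.45 to -0.73). Its point estimate was past 2-fold and its interval was not, which made it the nearest to a call on the lower side with Slc7a8 and Slc5a12. By point estimates alone, 1 of the 50 was 2-fold higher and 2 were 2-fold lower, against 3.97% and 3.91% of all measured genes. Slc7a2, a carrier of arginine and other cationic amino acids, had 8.84 and 5.24 CPM and a ratio of -0.75 (-1.14 to -0.37), while Slc7a1, a carrier of the same substrates, had 35.3 and 36.8 CPM and a ratio of 0.06 (-0.10 to 0.22). Slc7a4 and Slc7a14 had ratios of 0.56 and 0.57. Among the genes not called, Slc6a8, Slc2a10 and Slc38a9 came nearest on the higher side.

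SLC6 holds sodium-coupled carriers of neutral amino acids, transmitters and osmolytes. Slc6a19, the main neutral amino acid carrier of the brush border, had 1000 and 882 reads, 55.6 and 51.4 CPM, and a log2 ratio of -0.11 (-0.24 to 0.02). Slc6a20a, the proline carrier, had 76.1 and 81.6 CPM and a ratio of 0.10 (-0.01 to 0.21). Both intervals held 0. Slc6a6, the taurine carrier, was the most abundant of the family per length and had 346 and 330 CPM and a ratio of -0.07 (-0.12 to -0.02). Slc6a4, the serotonin carrier, had 73.7 and 78.9 CPM and a ratio of 0.10 (-0.01 to 0.21). Larger values were seen for the creatine carrier Slc6a8, with 1461 and 2329 reads, 81.2 and 136 CPM, and a ratio of 0.74 (0.65 to 0.84), and for the glycine carrier Slc6a9, with 26.7 and 38.4 CPM and a ratio of 0.53 (0.35 to 0.70). Slc6a9 overlaps Ccdc24, which had 103 and 179 reads and a ratio of 0.86.

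Cltrn encodes collectrin, a partner protein that carries Slc6a19 to the cell surface in the kidney. It had 20 reads in WT and 154 in Spib_KO, or 1.11 CPM (0.68 to 1.72) and 8.97 CPM (7.61 to 10.5). It was called higher, 7.90-fold, with a log2 ratio of 2.98 (2.34 to 3.76). Cltrn lies on chromosome X, 164090187 to 164118859, and no annotated gene overlaps it. Per length, it had 1.35 TPM in WT and 10.6 TPM in Spib_KO.

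**Figure D3:**
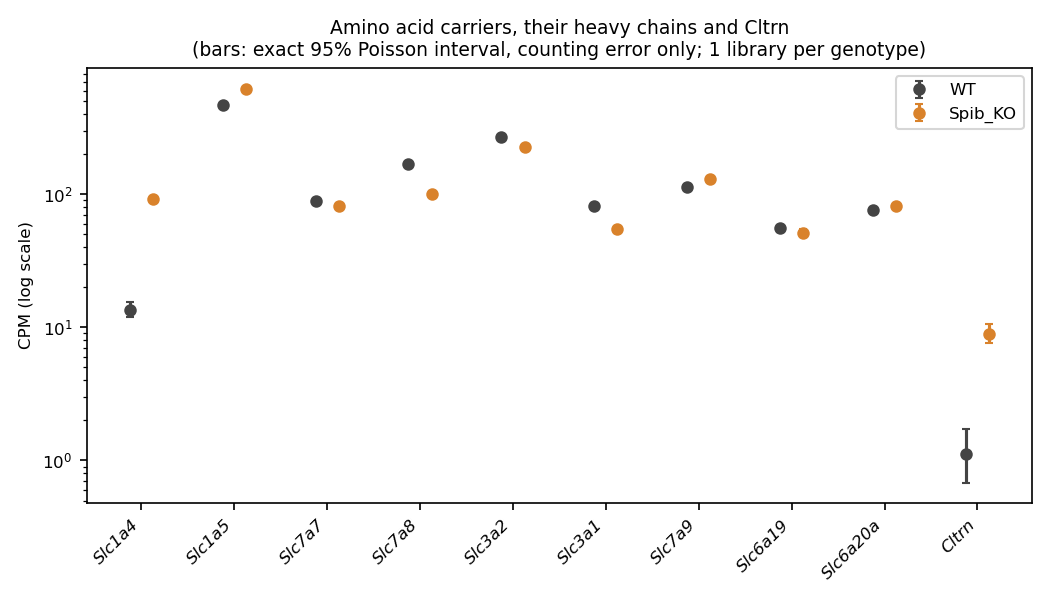
CPM (vertical log axis) in WT (dark) and Spib_KO (orange) for amino acid carriers, their heavy chains and the partner gene Cltrn, with exact 95% Poisson intervals that are mostly smaller than the points. Slc1a4 (13.6 and 92.4 CPM) and Cltrn (1.11 and 8.97 CPM) are set apart, the Spib_KO point of Slc3a1 lies below its WT point and that of Slc7a9 above, and the other genes drawn differ by less than 2-fold.

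SLC38 holds carriers of glutamine and other small neutral amino acids, and SLC43 carriers of large neutral amino acids and nucleobases. Slc38a2, a glutamine and alanine carrier known to be induced when amino acids run short, had 2061 and 1952 reads, 115 and 114 CPM, and a log2 ratio of -0.01 (-0.10 to 0.08). Slc38a1, its relative, had 56.1 and 51.6 CPM and an interval that held 0 (-0.25 to 0.01). Slc38a9, the lysosomal arginine sensor upstream of the growth kinase complex mTORC1, had 435 and 688 reads, 24.2 and 40.1 CPM, and a ratio of 0.73 (0.55 to 0.91). In deposited TPM it had 4.88 and 7.15, a log2 ratio of 0.55. Slc38a10 had 108 and 87.0 CPM and a ratio of -0.32 (-0.41 to -0.22). Slc43a2, which exports large neutral amino acids, had 47.3 and 41.1 CPM and a ratio of -0.20 (-0.35 to -0.06), and the nucleobase carrier Slc43a3 had an interval that held 0 (-0.62 to 0.27). No member of either family was called.

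Grouped by role, carriers of the absorptive route had medians below 0. Of the 13 carriers listed for absorption from the gut lumen 11 were measured, 0 were called, 8 had ratios below 0, and the median was -0.18. Of 6 measured carriers for exit to the blood side 0 were called, 5 had ratios below 0, and the median was -0.22. Enterocyte markers, which were also below 0 in 8 of 12, had a median of -0.26, and ran from -0.80 for Apob to 0.61 for Fabp1. Whether reads from enterocytes among the sorted cells take part in the carrier values was not tested. Of 7 measured carriers for growth 1 was called, Slc1a4, and the median was 0.06. Of 6 measured carriers of transmitters, osmolytes and choline 0 were called and the median was 0.31, and of 5 measured lysosomal and endosomal carriers 0 were called and the median was -0.06. All measured genes had a median of 0.01.

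Genes that work beside the carriers were described by the lists of related genes. Of 12 measured enzymes that digest sugars and peptides at the brush border 0 were called, 9 had ratios below 0, and the median was -0.39. Among them, the peptidase Anpep had 607 and 435 CPM with a ratio of -0.48 (-0.52 to -0.44), and the disaccharidase Sis had 430 and 435 CPM with a ratio of 0.02 (-0.03 to 0.06). The widest were the peptidase Enpep at -0.89 and the lactase gene Lct at -0.67. Of 8 measured genes for partners and the sodium pump 1 was called higher, Cltrn, and the median was -0.15. This was the 1 call among the measured genes of the related lists, against 2.33% higher and 2.18% lower over all measured genes. The pump subunit gene Atp1b1 had a ratio of 0.05, and the sodium-proton exchanger Slc9a3 had 51.7 and 26.7 CPM, a ratio of -0.95 (-1.11 to -0.79). Of 11 measured genes for the first steps of sugar metabolism 0 were called and the median was -0.15. Galk1, the galactokinase gene, had a ratio of -0.18, and the phosphofructokinase gene Pfkl had 144 and 231 CPM, a ratio of 0.68 (0.61 to 0.75).

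**Figure D4:**
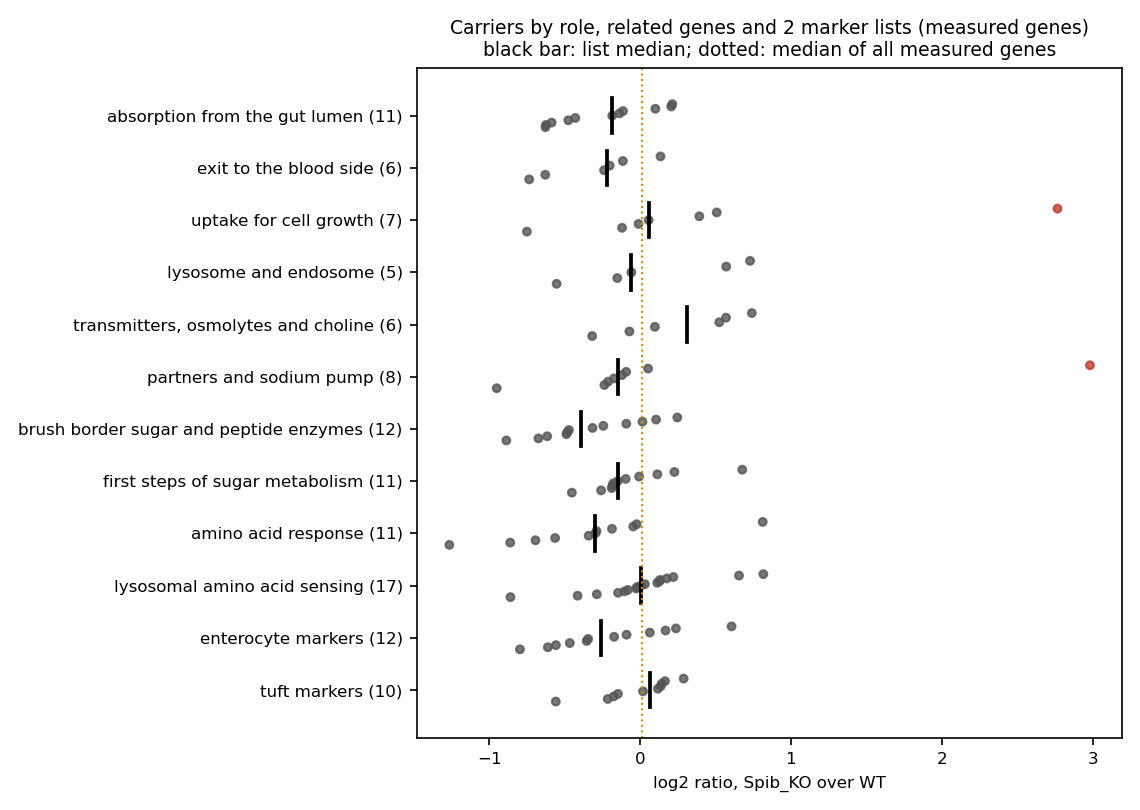
The log2 ratio of Spib_KO over WT (horizontal axis) for measured carriers grouped by role, for related genes, and for enterocyte and tuft markers, with 1 point per gene, the list median as a black bar and the number of measured genes in brackets. Slc1a4 (2.77) and Cltrn (2.98) are the points in red, called higher, and the group medians lie between -0.39 and 0.31.

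The amino acid response, in which the kinase Gcn2 (Eif2ak4) and the factor Atf4 raise carriers and synthesis enzymes when amino acids are scarce, was listed because Slc1a4, Slc3a2, Slc7a5 and Slc7a11 are among its known targets. Of 11 measured genes of that list, none of them a carrier, 0 were called, 10 had ratios below 0, and the median was -0.30. Atf4 had 129 and 113 CPM with a ratio of -0.19 (-0.27 to -0.10), and Aldh18a1, of proline synthesis, had 294 and 285 CPM and an interval that held 0 (-0.10 to 0.01). The asparagine synthetase gene Asns had a ratio of -0.30 (-0.43 to -0.16), and Sesn2, a leucine sensor, had 192 and 76 reads and a ratio of -1.26 (-1.67 to -0.88). The exception above 0 was Ddit3, at 37.6 and 66.0 CPM with a ratio of 0.81 (0.67 to 0.95). Slc1a4, at 2.77, lay outside the range of these genes, -1.26 to 0.81. Of 17 measured genes for amino acid sensing at the lysosome 0 were called and the median was 0.01, and Lamtor2 and Lamtor4, subunits of the Ragulator scaffold, had ratios of 0.22 and -0.03.

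Slc7a11, the cystine and glutamate exchanger, is shown with its upstream sequence because it holds a pair of TGATGNAA matches, while the Slc1a4 window holds none. The matches, in capitals, face each other between 66 and 40 bases upstream of the start, on the minus strand at chr3:50443653-50443679 (RefSeq, GRCm38.p6).

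Slc7a11 stretch: TGATGCAAacctggagaatTTGCATCA

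Slc7a11 had 28 reads in WT and 12 in Spib_KO, or 1.56 and 0.70 CPM, and was not measured. Its log2 interval ran from -2.26 to -0.13.

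The 29 genes that were not measured reached at most 3.26 CPM, and 15 of them had fewer than 10 reads in each library. They included the glucose carrier Slc2a3 (1 and 2 reads) and the noradrenaline carrier Slc6a2 (0 and 2 reads). Of the 79 genes, 10 had 0 reads in 1 library. The largest count facing a 0 was that of Slc6a20b, with 15 reads in WT against 0 in the other library. Its WT level was 4.77 times a floor of 3 counts in Spib_KO. The upper bound of its log2 interval, which allows for counting error in both libraries, was -1.77. Slc6a20b is a close copy of Slc6a20a, whose level was similar in both libraries, and the counting could split reads between them. In WT neither expected count was whole, at 14.63 for Slc6a20b and 1369.37 for Slc6a20a. Slc5a10, with 0 and 9 reads, had a Spib_KO level 3.15 times a floor of 3 counts in WT. The lower bound of its log2 interval was 1.05. Slc5a10 overlaps Fam83g, which had 497 and 559 reads. Slc5a5, the iodide carrier, had 46 and 8 reads (interval -3.75 to -1.36), and the dopamine carrier gene Slc6a3 had 21 and 2 reads (-6.46 to -1.29). These differences rest on few reads and were outside the calls.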

How the data were processed

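The submitters' processing notes name HISAT, Bowtie2 2.2.3 and build mm10, and the program that assigned reads to genes is not stated in the sources used here. Read counts, TPM and FPKM were deposited per gene and library, per the file headers. The deposited reads are expected counts (estimated counts, as their decimals show), not whole for 14 of the 79 genes, and were rounded. Libraries were scaled by TMM (edgeR 4.0.16, R 4.3.3). CPM values are counts over these totals. The log2 ratio used a prior count of 0.5, and its 95% interval is the exact conditional binomial (Clopper-Pearson) one. Reads carry no molecular identifiers and no strand, per the labels' protocols, so intervals and floors cover counting error only. Overlaps were taken from whole gene spans, and reads from bases that overlapping genes share cannot be separated by strand. With 1 library per genotype no p-value was computed.

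The members, the lists and the size rule were chosen with earlier results of these data known. Genes named were those called, the 10 carriers and the 2 of each family with the highest mean TPM, the carriers listed for absorption, the 3 nearest to a call on each side, and the called or 2 most abundant related genes. Other genes, and the motifs, were chosen after their values were seen. Alternatives were DESeq2 1.42.0 size factors, total counts, the upper quartile, 2 other filters, 2 other call rules, a prior count of 5, and deposited TPM and FPKM. Positions and promoter sequences are RefSeq's for GRCm38.p6, the assembly mm10 stands for. Of the 79 genes, 79 had a position and 60 a promoter. Some items are not reported here. The procedure was tested on simulated data. Python 3.11.15, numpy 2.4.6, scipy 1.17.1, pandas 2.3.3 and matplotlib 3.10.9 were used.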

Additional observations from a re-analysis of the deposited data

How the results depend on the processing

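Slc1a4 was called higher under each of the 11 alternatives. Dropping the filter, the point estimate and the bound at 1.5-fold are looser than the main rule, so they could not remove its call. At 92.4 CPM in Spib_KO, it was also bound to pass the CPM minimum of 20. Scaling by DESeq2 size factors, total counts or the upper quartile shifted log2 ratios by -0.012 to 0.009 and left both carrier calls in place. A prior count of 5 enters the ratio but not the interval, so it could change no call. The call of Slc2a9 was lost with a CPM minimum of 20, where 31 of the 79 genes were measured and 0 carriers were lower. It was also lost with deposited TPM and FPKM, where a gene needed a value of at least 5 in 1 library or both. Of the 79 genes, 38 passed with TPM and 36 with FPKM. Slc2a9 fell below each of these minimums, so it could not be called whatever its difference. Its log2(value + 1) differences were -0.65 with TPM and -0.60 with FPKM. With a pseudocount of 1, 0 carriers were lower, and with TPM and a pseudocount of 0.1 the 1 lower carrier was Slc7a15. The difference of Slc5a12 was -0.37, -0.50 and -0.34 with TPM, TPM with a pseudocount of 0.1 and FPKM. Without the filter 2 carriers were higher (Slc1a4 and Slc5a10) and 4 lower (Slc2a9, Slc5a5, Slc6a20b and Slc6a3), against 595 (3.48%) and 716 (4.18%) of all genes. By the point estimate 2 carriers were lower (Slc2a9 and Slc7a15), against 425 higher (3.97%) and 419 lower (3.91%) of all genes. With the interval bound at 1.5-fold 2 were higher (Slc1a4 and Slc6a8) and 3 lower (Slc2a9, Slc7a15 and Slc7a8), against 598 (5.59%) and 591 (5.52%) of all genes, so these counts of 50 are near the background. Over all genes, a CPM minimum of 20 gave 101 higher (1.31%) and 106 lower (1.38%) of 7695 measured. The main rule gave 250 (2.33%) and 233 (2.18%) of 10707. FPKM gave 165 higher (1.93%) and 226 lower (2.65%) of 8541 measured. TPM gave 203 (2.23%) and 256 (2.81%) of 9106, and 254 (2.79%) and 317 (3.48%) with a pseudocount of 0.1. With TPM and FPKM, more genes were thus lower than higher. The filters and call rules admit more or fewer genes by construction. For TPM and FPKM, which carry no counting interval, the cause was not tested. No paired analysis was possible because each genotype has 1 library. Depth limits the 29 genes that were not measured, for which 3 reads correspond to 0.17 CPM.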
